A study of Mus musculus with 8 samples.

Results

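The cytochrome P450 genes of families 1 to 3 were compared between livers of 2 groups of mice. Genes belonged to the set when their symbol in the platform annotation begins with Cyp1, Cyp2 or Cyp3 followed by a letter. The Cyp2b genes were left out. By this rule 48 of the 19552 genes with a value were members, each with 1 to 13 probe sets that carry its symbol alone, and a gene's value on an array was the median of these probe sets. All 8 mice were male and 6 weeks old, and in all of them the liver parenchymal cells (LPC) lacked the kinase TAK1 (gene Map3k7). Caspase 8 was deleted in the LPC of 4 mice as well (Tak1/Casp8), and the other 4 were Rip3-/- (gene Ripk3, Tak1/Rip3). The study asked which genes respond differently to apoptotic and to necrotic signals. The Casp8 deletion is limited to LPC while Rip3-/- holds for every cell, and no group with TAK1 intact was analysed here. Each difference below is Tak1/Casp8 minus Tak1/Rip3 on the log2 scale, so lower in one group and higher in the other describe the same result.

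Cytochromes P450 are haem enzymes of the endoplasmic reticulum that insert an oxygen atom into their substrates with electrons from P450 reductase. Families 1 to 3 carry most of the oxidation of drugs and foreign chemicals in the liver, and several members also act on steroids, vitamin D, arachidonic acid and linoleic acid. Many are controlled by the receptors AHR, CAR and PXR, many are confined to hepatocytes around the central vein, and in mice some differ strongly between males and females.

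The largest difference among the 48 members was that of Cyp3a16 (-2.18), followed by Cyp2c55 (-2.10) and Cyp2a22 (-2.03). Some probe sets shared by several Cyp3a genes differed by more, in a fit chosen after the data had been seen. These Cyp3a genes lie on chromosome 5, and some are near-identical copies. To show how alike these are, the 150 bases just before the annotated start of 5 of them are printed here 5′ to 3′ from RefSeq (GRCm38.p6, minus strand). Capitals mark bases that differ from the Cyp3a44 window in a global alignment. Bases absent from a copy leave no mark.
Cyp3a44 (chr5:145805875-145806024): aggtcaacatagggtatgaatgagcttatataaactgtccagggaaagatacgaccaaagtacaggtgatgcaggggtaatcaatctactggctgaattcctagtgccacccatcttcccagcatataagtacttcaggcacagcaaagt
Cyp3a41a (chr5:145720137-145720286): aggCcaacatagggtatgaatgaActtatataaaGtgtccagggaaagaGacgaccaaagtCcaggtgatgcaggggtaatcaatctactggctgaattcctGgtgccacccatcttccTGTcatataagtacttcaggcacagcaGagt
Cyp3a41b (chr5:145584731-145584880): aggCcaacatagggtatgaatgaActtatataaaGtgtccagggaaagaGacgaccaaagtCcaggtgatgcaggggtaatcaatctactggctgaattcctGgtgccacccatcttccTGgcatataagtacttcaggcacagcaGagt
Cyp3a16 (chr5:145469724-145469873): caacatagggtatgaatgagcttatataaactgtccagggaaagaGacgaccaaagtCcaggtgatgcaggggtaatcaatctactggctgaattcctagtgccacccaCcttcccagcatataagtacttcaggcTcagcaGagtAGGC
Cyp3a11 (chr5:145879855-145880004): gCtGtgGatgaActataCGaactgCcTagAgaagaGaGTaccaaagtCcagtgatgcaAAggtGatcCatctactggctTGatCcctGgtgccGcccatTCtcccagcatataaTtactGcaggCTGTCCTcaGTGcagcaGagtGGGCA
The windows of Cyp3a41a, Cyp3a41b and Cyp3a16 shared 93.3%, 94.0% and 91.6% of aligned positions with Cyp3a44, and that of Cyp3a11 shared 65.5%. The capitals at the end of the Cyp3a16 line lie past the end of the Cyp3a44 window, because the annotated starts differ by a few bases. The first 4 genes had own or shared probe sets that passed as lower in the Tak1/Casp8 livers. No probe set of Cyp3a11 alone passed, but some that it shares with these genes passed as lower too. Whether the differences follow the likeness of these windows was not tested.

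Among the 48 genes, 9 passed the test (limma, Benjamini-Hochberg adjusted p under 0.05 over all 19552 genes), which is 18.8% against 6.69% of all genes tested. Of the 9, 5 had higher values in the Tak1/Casp8 livers (2.64% of all genes did) and 4 had lower ones (4.05%). The higher ones were Cyp2j5, Cyp2j6, Cyp2j9, Cyp2r1 and Cyp3a13, and the lower ones were Cyp3a16, Cyp3a44, Cyp2c55 and Cyp2a22. In all 9 the values of the groups did not overlap. Over the 48, 6 members were higher without overlap (6.33% of all genes) and 7 were lower (8.3%), where 14.6% of all genes had no overlap in either direction. The median difference over the 48 was 0.00, beside 0.01 over all genes, with 25 differences above 0 and 23 below. The family as a whole therefore had no common direction, and the differences lay in a few members. With unmoderated variances, separate for each group (the separate-variance test), none of the 9 passed over all genes. An unadjusted p under 0.05 was reached by 14 of the 48 with either test. The share of all genes under that cut was not counted. This count and later ones of unadjusted p therefore have no background. In the limma fit with 1 array left out, 2 to 6 members passed as higher and 3 to 5 as lower.

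**Figure D1:**
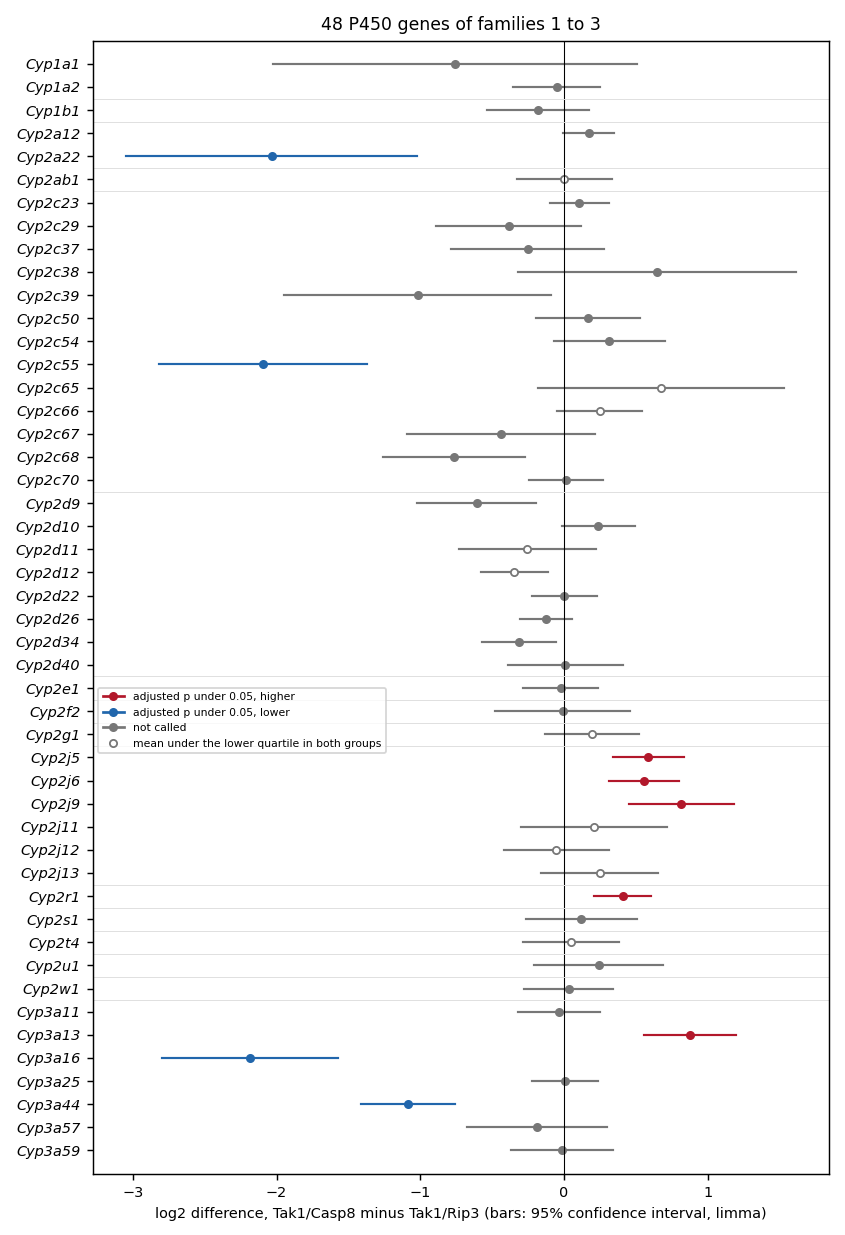
Log2 difference (Tak1/Casp8 minus Tak1/Rip3, 4 arrays each) of the 48 P450 genes, ordered by subfamily; bars are 95% confidence intervals from limma, and open points are genes whose mean lay under the lower quartile of probe set values in both groups. Cyp2j5, Cyp2j6, Cyp2j9, Cyp2r1 and Cyp3a13 lie to the right of 0 and Cyp2a22, Cyp2c55, Cyp3a16 and Cyp3a44 to the left, while most others have intervals that include 0.

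The arrays were alike in level, with medians from 8.06 to 8.16 and mean correlations with the own group from 0.985 to 0.991. Casp8 was lower in the Tak1/Casp8 livers (-1.31, limma adjusted p = 0.000123) and Ripk3 higher (0.98, limma adjusted p = 0.0078), as the genotypes imply, and Map3k7 differed by -0.08. Xist lay between 4.74 and 5.24 on all 8 arrays and the Y-linked Eif2s3y between 9.81 and 10.09, which goes with the label male. In whole liver, fewer cells of a type and less RNA per cell cannot be told apart. None of the 11 measured hepatocyte markers passed (2 had an unadjusted p under 0.05 in limma and 4 in the separate-variance test), with median difference -0.02, and the mean level over that list ran from 13.38 to 13.53 in the Tak1/Casp8 and from 13.46 to 13.49 in the Tak1/Rip3 livers. Marker lists of macrophages (10 genes), endothelial cells (7), T and NK cells (8) and red cells (4) held no gene that passed in either test. They held 1, 2, 3 and 0 genes with an unadjusted limma p under 0.05. In T and NK cell markers 7 of 8 differences were below 0 (median -0.15), and in red cell markers all 4 were above 0 (median 0.40). The macrophage and endothelial medians were 0.03 and -0.01. In stellate cell markers all 9 differences were below 0 (median -0.36) and 2 passed as lower in limma, and in neutrophil markers 6 of 7 were above 0 (median 0.26) and 2 passed as higher. In bile duct markers 1 of 8 passed as higher and 1 as lower, and in B and plasma cell markers 1 of 4 as higher and 2 as lower. With the separate-variance test these 4 lists held 0, 0, 0 and 1 calls. Their part in the P450 differences was not tested. The labels name no litter or batch. The p-values set each difference against the spread between mice within the groups, which limma moderates over all genes.

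Cyp3a enzymes oxidise a very wide range of drugs, steroids and bile acids. Of the 7 members, Cyp3a13 passed as higher and Cyp3a16 and Cyp3a44 as lower, and the other 4 did not pass. Cyp3a16, known mainly from fetal and newborn liver, was at 5.69, 6.69, 6.77 and 7.30 in the 4 Tak1/Rip3 livers and at 4.50, 4.42, 4.61 and 4.18 in the Tak1/Casp8 livers. Every Tak1/Casp8 value lay more than a unit below the lowest Tak1/Rip3 value, and the Tak1/Casp8 mean lay under the lower quartile of all probe set values, where the array resolves little. Cyp3a16 differed by -2.18 ± 0.28 (limma adjusted p = 0.0019; errors of differences are SE, with 4 livers in each group). No fold is given because the Tak1/Casp8 livers lay at that low level. All 9 probe sets of Cyp3a16 were lower, by -4.49 to -0.39, and 5 of them passed in a fit over all probe sets. Of all 223771 probe sets 1.63% passed in that fit (0.542% higher, 1.09% lower), and of the 362 of the members 10 passed as higher and 15 as lower.

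Cyp3a44, a form found mainly in female liver, was at 10.04, 10.54, 10.46 and 10.33 in the Tak1/Rip3 livers and at 9.22, 8.99, 9.26 and 9.57 in the Tak1/Casp8 livers. The groups did not overlap, and the difference was -1.09 ± 0.15, or 2.12-fold lower (limma adjusted p = 0.0027). The 5 probe sets of Cyp3a44 did not give 1 size: they differed by -2.91, -2.77, -1.42, -0.21 and -0.16, and the first 2 passed. The median fell on a different probe set in each group, so the printed value is a middle of unequal parts rather than a size that the probe sets share. With the brightest probe set standing for the gene, Cyp3a44 differed by -0.16 (limma adjusted p = 0.585) and Cyp3a16 by -0.78 (limma adjusted p = 0.103). With the median over the brighter of the probe sets they differed by -1.89 and -3.88, and with shared probe sets added by -2.61 and -4.14, all 4 with calls.

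Cyp3a13 lies apart from the other Cyp3a genes in the genome and is expressed in liver and intestine. It was at 10.60, 10.66, 11.27 and 10.84 in the Tak1/Rip3 livers and at 11.74, 11.78, 11.58 and 11.77 in the Tak1/Casp8 livers. All Tak1/Casp8 values were higher, and the Tak1/Rip3 value of replicate 3 came closest to them. The difference was 0.87 ± 0.14, or 1.83-fold higher (limma adjusted p = 0.0067). Its 11 probe sets were all higher, by 0.58 to 1.22, and 4 of them passed.

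Cyp3a11, the main Cyp3a enzyme of male mouse liver and a target of the xenobiotic receptor PXR, was at 12.71, 13.00, 13.00 and 12.91 in the Tak1/Rip3 and at 12.83, 13.03, 12.56 and 13.06 in the Tak1/Casp8 livers. The groups overlapped, and the 95% interval of the difference ran from -0.32 to 0.25 (limma adjusted p = 0.909). Cyp3a25 (0.01, interval -0.22 to 0.24), Cyp3a57 (-0.19) and Cyp3a59 (-0.01, with 1 probe set) did not pass either. The interval of Cyp3a57 was wider, from -0.67 to 0.30. Cyp3a13 and the pair of Cyp3a16 and Cyp3a44 thus differed in opposite directions in the same livers.

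**Figure D2:**
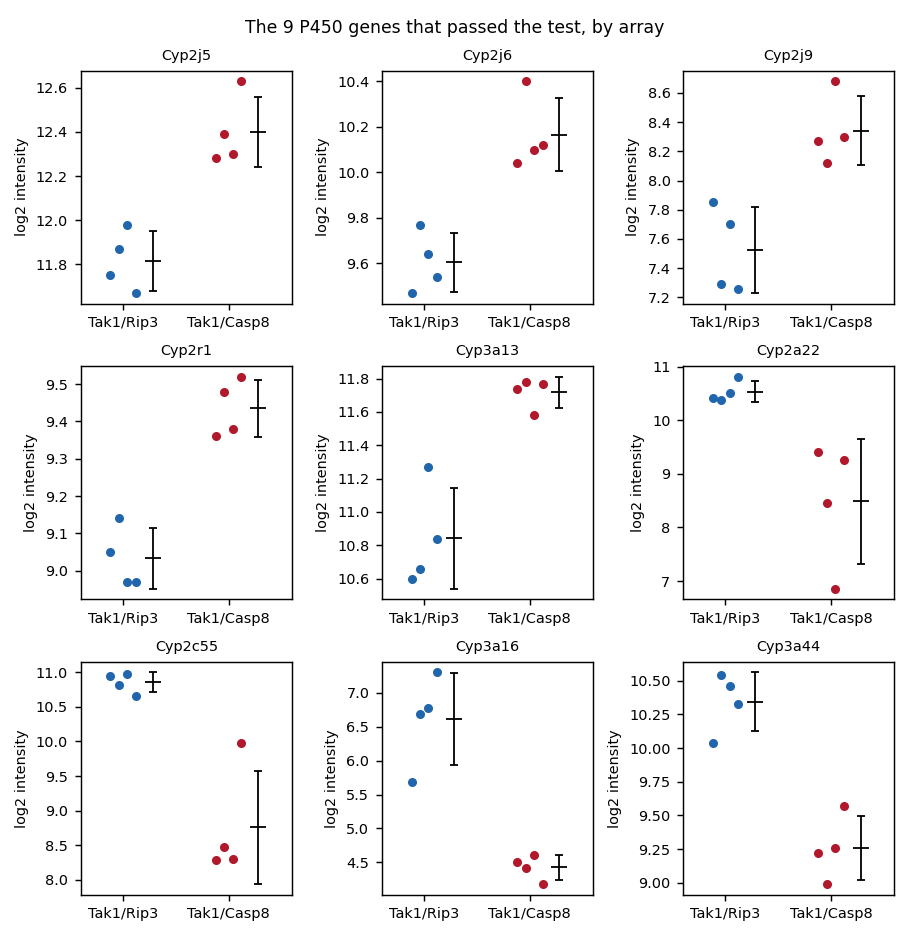
Log2 intensity of the 9 P450 genes that passed the test, with 1 point per array and the mean with SD (n = 4) beside each group; the axes differ between panels and do not start at 0. In each panel the 4 Tak1/Casp8 points lie all above or all below the 4 Tak1/Rip3 points, and Cyp2c55 has 1 Tak1/Casp8 array at 9.98 between the others and the Tak1/Rip3 livers.

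Cyp3a41a and Cyp3a41b, copies that are characteristic of female mouse liver, share all of their probe sets with each other and so had no value of their own. They are 2 of 6 genes, with Cyp2a4, Cyp2a5, Cyp2c40 and Cyp2c69, that the single-symbol rule left without a value. The shared probe sets, 57 in 10 combinations of symbols, were therefore also fitted as added rows in 1 table with all genes. This fit was chosen after the data had been seen, and in it 6.62% of 20846 rows passed (2.6% higher, 4.01% lower).

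The probe sets shared by Cyp3a41a and Cyp3a41b alone, 8 distinct ones, had medians of 11.54, 12.13, 12.31 and 12.18 in the Tak1/Rip3 livers. In the Tak1/Casp8 livers the medians were 8.49, 8.61, 7.90 and 8.26. The groups lay far apart, and the difference was -3.72 ± 0.19, or 13.2-fold lower (limma adjusted p = 1.07e-05). All 8 distinct probe sets were lower and all 8 passed, with differences from -6.43 to -1.09. Without any 1 array the difference ran from -3.89 to -3.58 (highest limma adjusted p = 0.000142), and with separate unmoderated variances the adjusted p was 0.0132.

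Probe sets that carry the symbols of a larger number of Cyp3a copies differed by unequal amounts. The probe set of Cyp3a11, Cyp3a41a, Cyp3a41b and Cyp3a44 differed by -3.72, that of Cyp3a16, Cyp3a41a, Cyp3a41b and Cyp3a44 by -2.69, and the pair of Cyp3a41a, Cyp3a41b and Cyp3a44 by -1.62. The pair of Cyp3a11, Cyp3a41a and Cyp3a41b differed by -1.86, and all 4 of these rows passed in limma. With the separate-variance test the rows at -3.72 and -2.69 passed (adjusted p = 0.0431 and 0.0392). Those at -1.62 and -1.86 missed the threshold in that test (adjusted p = 0.0571 and 0.0579). The 3 distinct probe sets that name Cyp3a11, Cyp3a16, Cyp3a41a, Cyp3a41b and Cyp3a44 together differed by -0.06 (limma adjusted p = 0.789), with overlapping groups. The rows of Cyp3a25 with Cyp3a59 (-0.04) and of Cyp3a25, Cyp3a57 and Cyp3a59 (0.32) did not pass. The probe set of Cyp3a11, Cyp3a41a, Cyp3a41b and Cyp3a44 had a Tak1/Casp8 mean of 9.38, where Cyp3a11 by itself was at 12.87. Which of the named copies a probe set reads was not tested. Probes of one copy may also bind others among these genes, so no size can be assigned to a single copy.

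**Figure D3:**
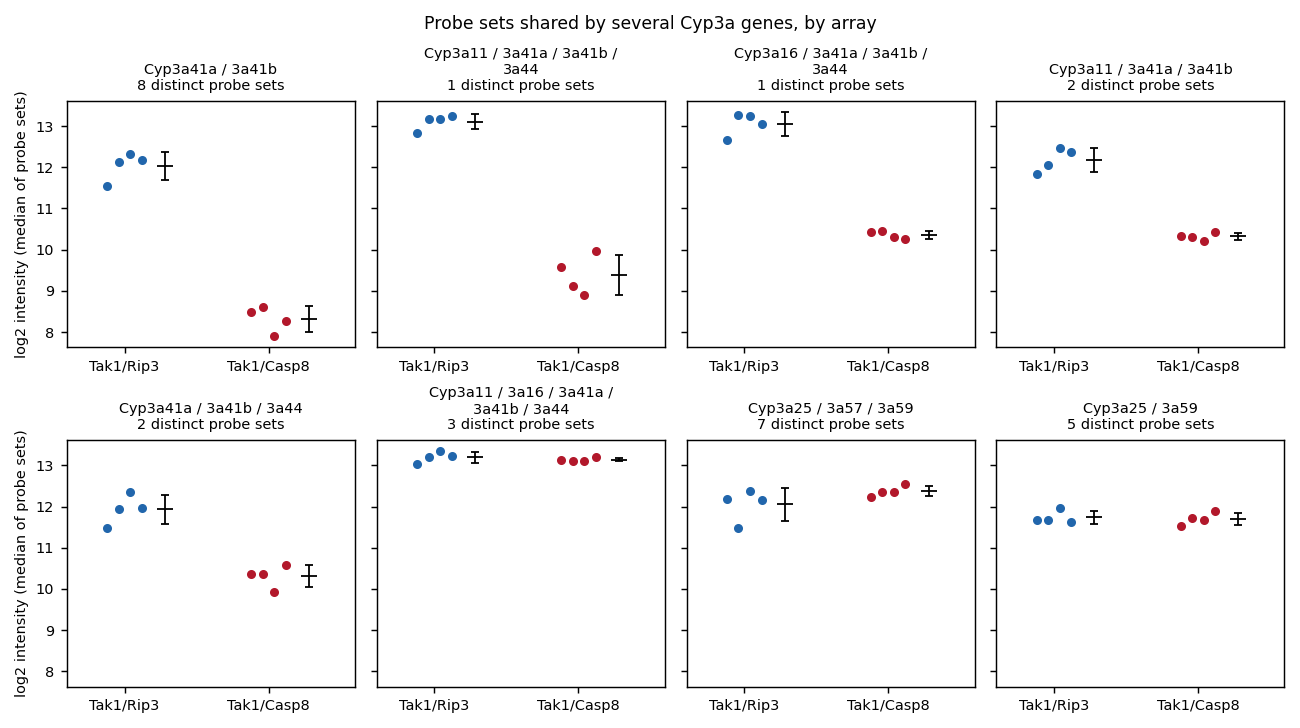
Log2 intensity, as the median over the distinct probe sets, of 8 combinations of Cyp3a genes that share probe sets, with 1 point per array and the mean with SD (n = 4) beside each group. The row of Cyp3a41a and Cyp3a41b has a mean of 12.04 in the Tak1/Rip3 and 8.32 in the Tak1/Casp8 livers, while the row that names 5 genes and both Cyp3a25 rows have overlapping groups.

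The copies Cyp3a16, Cyp3a41a, Cyp3a41b and Cyp3a44 are genes with higher levels in females or in the young, and both groups here were male. Other female-biased genes of these families did not pass, and of these only Cyp2g1 had a value of its own. Cyp2g1 differed by 0.19, with means under the lower quartile in both groups. The row of Cyp2a4 and Cyp2a5 differed by 0.06, and that of Cyp2c40, Cyp2c67, Cyp2c68 and Cyp2c69 by -0.68. In that Cyp2c row the groups did not overlap, all 9 probe sets were lower and 1 of them passed in the fit over all probe sets. The male-biased members Cyp2d9 (-0.61) and Cyp2u1 (0.24) did not pass either. In a list of 9 measured liver genes outside these families that are higher in female mice, 4 passed as lower and none as higher, with median difference -1.29. They were Prom1 (-1.76), the fatty acid hydroxylase Cyp4a14 (-2.92), and Hao2 (-1.67) and A1bg (-1.29), whose Tak1/Casp8 means lay under the lower quartile. With the separate-variance test 1 of the 9 passed. Of 10 male-biased genes, Mup20, a urinary protein, passed as higher (1.11, limma adjusted p = 0.0038), and the others did not pass. With the separate-variance test none of the 10 passed. None of 8 regulators of growth hormone signalling and sex bias passed in limma or the separate-variance test, and 4 and 1 of them had an unadjusted p under 0.05. Their differences were above 0 in 4 and below 0 in 4, with median -0.01. The growth hormone receptor Ghr differed by 0.33 and its signal carrier Stat5b by 0.26. Bcl6, a repressor of female-biased genes, differed by 0.68, and Igfals, a growth hormone target, by -0.84. Their part in the Cyp3a differences was not tested.

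Cyp2j enzymes turn arachidonic acid into epoxides and act on other fatty acids. Of the 6 members, Cyp2j5, Cyp2j6 and Cyp2j9 passed as higher and none as lower. The other 3, Cyp2j11, Cyp2j12 and Cyp2j13, had means under the lower quartile in both groups and differed by 0.21, -0.06 and 0.25 without passing. Cyp2j5, the form typical of mouse kidney and liver, was at 11.75, 11.87, 11.98 and 11.67 in the Tak1/Rip3 livers and at 12.28, 12.39, 12.30 and 12.63 in the Tak1/Casp8 livers. The groups did not overlap, and the difference was 0.58 ± 0.11, or 1.5-fold higher (limma adjusted p = 0.0125). All 11 probe sets of Cyp2j5 were higher and 5 passed.

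Cyp2j6 was at 9.47, 9.77, 9.64 and 9.54 in the Tak1/Rip3 livers and at 10.04, 10.40, 10.10 and 10.12 in the Tak1/Casp8 livers. The groups did not overlap, although the gap between them was smaller than the range within each, and the difference was 0.56 ± 0.11 (limma adjusted p = 0.0145). Cyp2j9, best known from brain, was at 7.85, 7.29, 7.70 and 7.26 against 8.27, 8.12, 8.68 and 8.30 in the Tak1/Casp8 livers. It differed by 0.81 ± 0.16, or 1.76-fold (limma adjusted p = 0.0162), again with every Tak1/Casp8 value above every Tak1/Rip3 value. All 9 probe sets of Cyp2j6 and all 11 of Cyp2j9 were higher, of which 1 and 0 passed. Cyp2j6 missed the threshold without Tak1/Rip3 replicate 1 or 4 (limma adjusted p = 0.0507 and 0.0501), and Cyp2j9 missed it without Tak1/Rip3 replicate 4 (0.0521) and without both least correlated arrays (0.0545).

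The windows before the Cyp2j genes were less alike than those of the near-identical Cyp3a copies. The 150 bases before the starts of Cyp2j5, Cyp2j6 and Cyp2j9 shared 47.0% to 48.2% of aligned positions in pairs, and no probe set carried symbols of 2 Cyp2j genes. Their 3 differences therefore come from separate probe sets on the same arrays. The likeness of the transcripts was not measured, and binding of probes across Cyp2j genes was not tested.

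Cyp2r1 is the main vitamin D 25-hydroxylase of the liver. It was at 9.05, 9.14, 8.97 and 8.97 in the Tak1/Rip3 livers and at 9.36, 9.48, 9.38 and 9.52 in the Tak1/Casp8 livers. The spread within each group was small (SD 0.08 in both), and the groups did not overlap. The difference was 0.41 ± 0.09, or 1.33-fold higher (limma adjusted p = 0.0224), and all 8 probe sets were higher, by 0.37 to 1.38, with none passing alone. The call ended when replicate 1, 3 or 4 of Tak1/Rip3 or replicate 2 of Tak1/Casp8 was left out (limma adjusted p from 0.0601 to 0.076) and with the brightest probe set (0.171).

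**Figure D4:**
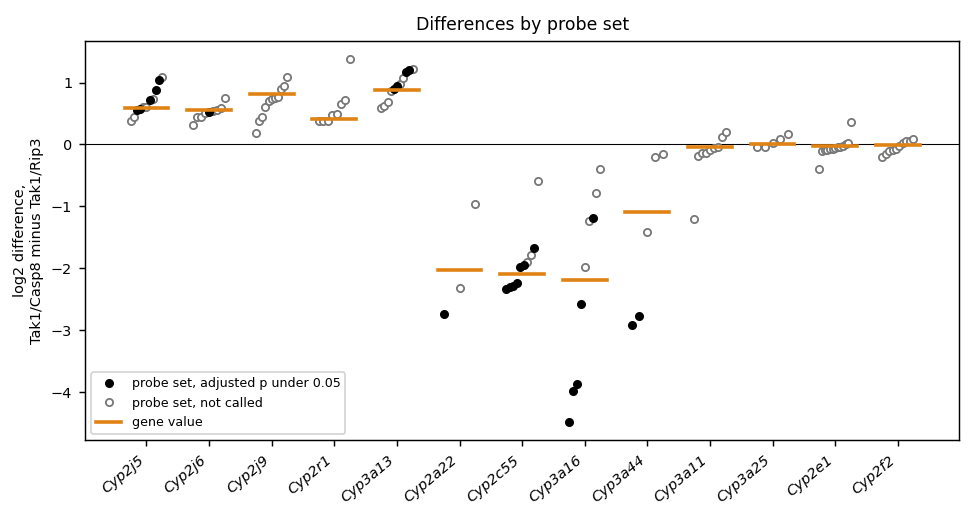
Log2 difference (Tak1/Casp8 minus Tak1/Rip3) of every single-symbol probe set of 13 P450 genes, with filled points for probe sets that passed over all probe sets and a line at the gene value. The probe sets of Cyp2j5, Cyp2j6, Cyp2j9, Cyp2r1 and Cyp3a13 all lie above 0, those of Cyp3a16 and Cyp3a44 spread from near 0 to below -2, and 1 probe set of Cyp3a11 lies at -1.21 apart from the other 8.

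Cyp2c is the largest mouse subfamily and oxidises drugs and arachidonic acid. Of its 13 members 1 passed as lower and none as higher, with median difference 0.01. Cyp2c55, which makes hydroxylated arachidonic acid and is also abundant in colon, was at 10.95, 10.82, 10.98 and 10.66 in the Tak1/Rip3 livers and at 8.28, 8.47, 8.30 and 9.98 in the Tak1/Casp8 livers. The Tak1/Rip3 livers lay close together, and Tak1/Casp8 replicate 4 stood between them and the other 3. The difference was -2.10 ± 0.33, or 4.28-fold lower (limma adjusted p = 0.0052), and all 10 probe sets were lower, of which 7 passed. Without Tak1/Casp8 replicate 4 and Tak1/Rip3 replicate 2, the array of each group least correlated with the rest, Cyp2c55 differed by -2.52.

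Cyp2c68 was at 10.89, 10.71, 11.58 and 10.85 in the Tak1/Rip3 livers and at 10.27, 10.47, 9.69 and 10.54 in the Tak1/Casp8 livers. The groups did not overlap, but the difference of -0.77 ± 0.22 missed the threshold (limma adjusted p = 0.071). It passed under 7 of 22 alternative settings, among them the mean over its probe sets (-0.86, limma adjusted p = 0.0137). The 9 probe sets that Cyp2c68 shares with Cyp2c40, Cyp2c67 and Cyp2c69 were all lower, and 1 of them passed. As a row they differed by -0.68 without overlap and also missed the threshold (limma adjusted p = 0.111).

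Cyp2c38 was at 8.13, 8.11, 8.11 and 7.70 in the Tak1/Rip3 livers and at 8.69, 9.45, 7.08 and 9.41 in the Tak1/Casp8 livers. Its difference of 0.65 did not pass (limma adjusted p = 0.445) with all arrays, and without Tak1/Casp8 replicate 3 it was 1.17 (limma adjusted p = 0.0124). Cyp2c39, a retinoic acid hydroxylase, was also at its lowest on that array, at 5.68 against 7.11 to 7.93 on the other Tak1/Casp8 arrays. It differed by -1.02 (limma adjusted p = 0.196). Cyp2c29 (-0.39), Cyp2c67 (-0.44), Cyp2c37 (-0.25), Cyp2c50 (0.17) and Cyp2c54 (0.32) did not pass.

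Cyp2c70, which makes muricholic acids in mice, was at 13.01, 13.15, 12.91 and 12.98 in the Tak1/Rip3 and at 13.12, 13.20, 13.03 and 12.74 in the Tak1/Casp8 livers. The groups overlapped and its interval of -0.25 to 0.27 lay around 0. Cyp2c23, an arachidonic acid epoxygenase named Cyp2c44 in the platform annotation, differed by 0.10 (interval -0.10 to 0.31). Cyp2c65 (0.67) and Cyp2c66 (0.25) had means under the lower quartile in both groups.

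Of the 2 Cyp2a members with a value, Cyp2a22 passed as lower. It was at 10.41, 10.38, 10.51 and 10.81 in the Tak1/Rip3 livers and at 9.40, 8.45, 6.86 and 9.25 in the Tak1/Casp8 livers. Every Tak1/Casp8 value was lower, and they spread over far more than the Tak1/Rip3 values (SD 1.16 against 0.20). The difference was -2.03 ± 0.46, or 4.10-fold lower (limma adjusted p = 0.0253), and all 3 probe sets were lower, by -2.74 to -0.96. The call ended when replicate 1, 3 or 4 of Tak1/Rip3 or replicate 2 of Tak1/Casp8 was left out (limma adjusted p from 0.0594 to 0.0767), and the brightest probe set differed by -0.96.

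Cyp2a12, a steroid hydroxylase, was at 12.54, 12.65, 12.59 and 12.57 in the Tak1/Rip3 livers and at 12.75, 12.79, 12.72 and 12.78 in the Tak1/Casp8 livers. The groups did not overlap, but the difference of 0.17 ± 0.08 missed the threshold (limma adjusted p = 0.254). Cyp2a4 and Cyp2a5, a steroid and a coumarin hydroxylase, share their 9 probe sets. That row differed by 0.06 (interval -0.63 to 0.76), and its values spread from 11.67 to 13.20 in the Tak1/Casp8 livers.

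None of the 8 Cyp2d members passed in limma or the separate-variance test, with 3 at an unadjusted p under 0.05 in each and a median difference of -0.19. Cyp2d9, a testosterone hydroxylase of male liver, was at 11.54, 11.20, 11.86 and 11.50 in the Tak1/Rip3 livers and at 10.69, 10.85, 10.69 and 11.44 in the Tak1/Casp8 livers. Tak1/Casp8 replicate 4 reached into the range of the other group. Its difference was -0.61 ± 0.19 (limma adjusted p = 0.0828), with all 8 probe sets lower, and without that replicate it was -0.78 (limma adjusted p = 0.0128). Cyp2d26 was at 13.26, 13.19, 13.14 and 13.22 against 13.12, 13.00, 13.08 and 13.11 in the Tak1/Casp8 livers, and its difference of -0.13 did not pass although the groups did not overlap. The median of the subfamily was -0.0497 with the brightest probe sets and 0.0025 over the 5 genes above the 50th percentile of level, so it moved with the choice.

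Cyp2d10 (0.24), Cyp2d22 (0.00), Cyp2d34 (-0.31) and Cyp2d40 (0.01) did not pass. The Cyp2d34 value lay outside the range of its 9 probe set differences (-0.26 to 0.59, 4 of them above 0). Its median fell on different probe sets on different arrays, and its Tak1/Casp8 mean lay under the lower quartile. Cyp2d11 (-0.25) and Cyp2d12 (-0.35, without overlap, limma adjusted p = 0.0826) had means under the lower quartile in both groups.

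The Cyp1 genes are the classic targets of the aryl hydrocarbon receptor AHR, and none of the 3 passed or had an unadjusted p under 0.05 in limma or the separate-variance test. Cyp1a1 was at 7.49, 7.44, 8.95 and 7.39 in the Tak1/Rip3 livers and at 6.23, 6.20, 8.91 and 6.90 in the Tak1/Casp8 livers. Replicate 3 was the highest in both groups, a number that pairs no mice, and the difference of -0.76 had an interval of -2.03 to 0.51 (limma adjusted p = 0.498). Cyp1a2, the constitutive form of hepatocytes near the central vein, was at 12.72, 12.78, 13.22 and 12.99 against 12.63, 12.86, 12.92 and 13.09 in the Tak1/Casp8 livers. It differed by -0.05 (interval -0.35 to 0.25) with overlapping groups. Cyp1b1, which is found mainly outside hepatocytes, was at 7.62, 7.89, 7.76 and 7.70 against 7.84, 7.29, 7.88 and 7.23 in the Tak1/Casp8 livers and differed by -0.18 (interval -0.53 to 0.17).

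The ethanol and paracetamol oxidase Cyp2e1 was at 13.05, 13.21, 13.32 and 13.16 in the Tak1/Rip3 livers and at 13.32, 13.19, 12.87 and 13.26 in the Tak1/Casp8 livers. The groups overlapped, with an interval of -0.28 to 0.23. Cyp2f2, a naphthalene oxidase of periportal hepatocytes, was at 13.23, 12.98, 13.16 and 13.06 against 13.06, 13.40, 12.40 and 13.53 in the Tak1/Casp8 livers. Its Tak1/Casp8 values lay on both sides of the other group, and the interval was -0.48 to 0.46. Values this near the top of the array's range may be compressed, which was not tested.

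Among the subfamilies with 1 member, Cyp2u1, a fatty acid hydroxylase, ranged from 8.28 to 8.78 in the Tak1/Rip3 and from 8.51 to 9.40 in the Tak1/Casp8 livers and did not pass (0.24, interval -0.21 to 0.69). Cyp2s1 (0.12) and Cyp2w1 (0.03) did not pass. Cyp2ab1 (0.00), Cyp2g1 (0.19) and Cyp2t4 (0.05) had means under the lower quartile in both groups. In all, 10 of the 48 members were at that level and none of them passed, so the 9 calls came from the other 38.

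The lowest and highest values of the members were spread unevenly over the arrays. Tak1/Casp8 replicate 3 held the lowest of the 8 values in 12 of the 38 members above the lower quartile. Tak1/Rip3 replicate 3 held the highest in 11. The matching counts over all genes were not made, so the unevenness may not be particular to these members. Members with their lowest value on Tak1/Casp8 replicate 3 included Cyp2a22, Cyp2c29, Cyp2c38, Cyp2c39, Cyp2c67, Cyp2c68, Cyp2e1, Cyp2f2 and Cyp3a11. Without this array all 9 members still passed, and Cyp2c38 joined them as higher.

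**Figure D5:**
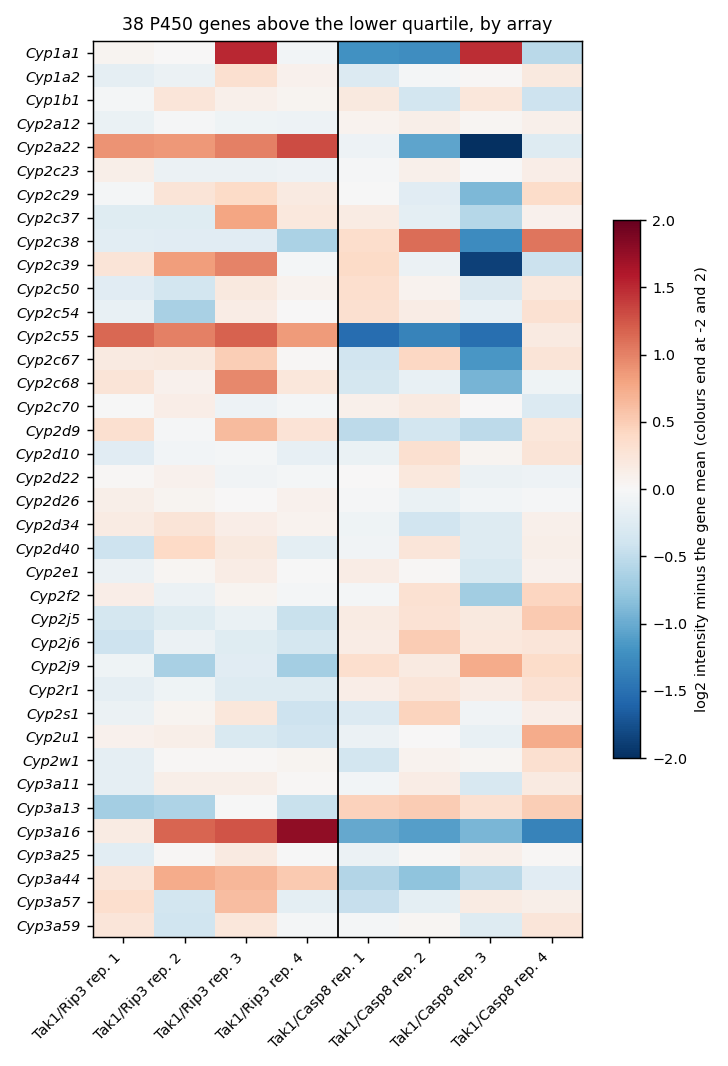
Log2 intensity minus the gene's mean over 8 arrays for the 38 P450 genes above the lower quartile, with 4 Tak1/Rip3 arrays left of the line and 4 Tak1/Casp8 arrays right of it; colours end at -2 and 2. Cyp3a16 and Cyp3a44 are above their mean in every Tak1/Rip3 array and below it in every Tak1/Casp8 array, and Tak1/Casp8 replicate 3 is low in several Cyp2c genes.

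P450 genes mark the zones of the liver lobule. None of 7 pericentral members (median difference -0.04) passed, nor did the periportal Cyp2f2, and none had an unadjusted p under 0.05 in limma or the separate-variance test. In 9 pericentral genes outside the P450 family, 6 passed as lower, with median difference -0.73 (0 with the separate-variance test), among them the Wnt pathway genes Lgr5 (-1.52) and Axin2 (-0.73) and the transporter Slc22a3 (-1.07). The mean level over those 9 ran from 8.95 to 9.84 in the Tak1/Casp8 and from 9.99 to 10.12 in the Tak1/Rip3 livers. In 8 periportal genes outside the P450 family 6 differences were above 0, with median 0.25, and 1 passed as higher in limma, Hsd17b13 (0.39). Whether the pericentral P450 genes and these genes differ from each other was not tested.

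P450 proteins need electron donors and haem. None of 6 electron transfer partners passed (median difference -0.02; 0 with an unadjusted p under 0.05 in limma and 1 in the separate-variance test), with P450 reductase, Por, at -0.15. Of 11 measured genes of haem synthesis and breakdown 9 differences were below 0, with median -0.17, and 1 passed, Alad, the second enzyme of haem synthesis, which was lower (-0.95 ± 0.11, limma adjusted p = 0.0011; 0 of the list passed with the separate-variance test). The first enzyme, Alas1, differed by -0.37 (limma adjusted p = 0.482).

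The receptors and factors that control these genes mostly did not pass either. None of 11 xenobiotic receptors and partners did, and none had an unadjusted p under 0.05 in limma or the separate-variance test (median difference 0.07), with PXR (Nr1i2) at 0.17, CAR (Nr1i3) at -0.20 and Ahr at -0.09. Of 13 liver transcription factors 1 passed, Cebpa, which was higher (0.37, limma adjusted p = 0.0468; 0 passed with the separate-variance test). Among 16 acute phase genes, which liver makes in inflammation while many P450 genes are known to fall, 10 passed as higher and none as lower in limma, with median difference 0.60. With the separate-variance test 1 passed, and their part in the P450 differences was not tested.

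In 41 members that had a promoter in the RefSeq table (GRCm38.p6), the 250 bases before the start were searched on both strands for 3 motifs. TATAAA was in 21 of them (51.2%, against 12.4% of 32851 promoters) and AGGTCA, a core that many nuclear receptors bind, in 11 (26.8%, against 14.0%). GCGTG, the core of the AHR element, was in 8 (19.5%, against 28.2%), among them Cyp1a1 and Cyp1b1. Each member was counted by its first listed promoter only, while the 32851 are all listed promoters, so these shares are of unlike units. Among the 9 members that passed, TATAAA was in Cyp2a22, Cyp2c55, Cyp2j5, Cyp3a16 and Cyp3a44, and AGGTCA was in Cyp2j5 and Cyp3a44, where it opens the printed window. GCGTG was in Cyp2j9 alone of the 9. None of the 3 motifs contains another, and a match describes these letters only.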

How the data were processed

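RNA from liver of 8 mice was hybridised to Affymetrix whole-transcript arrays, 1 per mouse, and groups came from the genotype label. The deposited values are log2 intensities per probe set made by the authors with RMA (per the submitters' processing notes). The sources used here give no build for the probe sets. RMA removes shifts shared by most genes and compresses small differences near background. No detection call was used, and precision is limited by the 4 arrays in each group. Of 223771 probe sets 206316 had 1 symbol, 3734 had several and 13721 had none. The old symbols were updated for 2587 names through a RefSeq gene table (GRCm38.p6), which 19464 of 19552 genes matched.

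A gene's value was the median over its single-symbol probe sets. Tests were limma 3.58.1 in R 4.3.3 (lmFit and eBayes, 1 group term, two-sided, Benjamini-Hochberg over all genes, called under 0.05), and figures used matplotlib 3.10.9 in Python 3.11.15. Folds are the log2 differences turned back to the linear scale, and intervals are 95%. Lists are described by counts and medians without a set test. Tested on simulated data of 19552 genes, this fit found 35.8% of genes with a log2 change of 0.5, 95.5% of those with 1 and 100% of those with 2. Of its 166 calls 12 were false.

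The members and lists were chosen with earlier results of these data known. Named with full values were all members that passed, the member of highest mean in each subfamily (by range or difference where it was alone and did not pass) and well-known members, and in other lists genes with the smallest adjusted p. Cyp2c68, Cyp2c38, Cyp2c39, Cyp2d9, Alas1 and some list members were named after their values were seen. Alternatives were other normalisations, other ways to combine probe sets, a filter at the 30th or the 50th percentile of level, other variance models including a Welch test (the separate-variance test), leaving out genes closer than 10 Mb to a targeted locus, and leaving out arrays.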

Additional observations from a re-analysis of the deposited data

Results flagged for a closer look

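In 96 groups of 4 values (48 genes in 2 groups), 5 had 1 array far from the other 3 by Dixon's test, which flags about 1 in 20 groups by chance. Cyp1a1 was at 8.95 in Tak1/Rip3 replicate 3, against 7.39 to 7.49 in the other Tak1/Rip3 livers. Cyp2c23 was at 13.07 in Tak1/Rip3 replicate 1, against 12.84 to 12.86. Cyp2c38 was at 7.70 in Tak1/Rip3 replicate 4, against 8.11 to 8.13. Cyp2c55 was at 9.98 in Tak1/Casp8 replicate 4, against 8.28 to 8.47 in the other Tak1/Casp8 livers. Cyp2w1 was at 6.76 in Tak1/Rip3 replicate 1, against 6.95 to 6.99. Of these genes only Cyp2c55 had passed the test between the groups, and it passed in 21 of 22 alternatives.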

How the results depend on the processing

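Of 22 alternatives, 8 left out 1 array each. The count of 1309 genes that passed was 758 with the brightest probe set and 115 with the Welch test, and 706 to 1348 with 1 array left out (706 and 738 without replicate 1 and 4 of Tak1/Rip3, 765 without replicate 2 of Tak1/Casp8). The members that passed as higher were 0 with the Welch test and 2 to 6 with 1 array left out (2 and 3 without replicate 4 and 1 of Tak1/Rip3), and those lower were 0 with the Welch test and 3 to 5 with 1 array left out. The median difference of Cyp2a was -0.47 with the brightest probe set. That of Cyp2d was -0.0687 with the mean over probe sets, -0.0497 with the brightest, -0.0837 with the brighter ones, and -0.0616 and 0.0025 with filters at the 30th and 50th percentile. That of Cyp2c was -0.25 and that of Cyp2j 0.58 with the filter at the 30th percentile, and Cyp2j was 0.58 at the 50th, since filters drop dim genes. Cyp3a was -0.23 without both least correlated arrays. The cause of the other shifts was not tested. In 1027 comparisons of single members with an alternative, 990 stayed on their side of the threshold, 24 calls were lost and 13 were gained. The sign changed in 77, none of which passed in either fit. No paired analysis was possible because the replicate numbers are those of accession order and pair no mice.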

Other observations

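In families 4 and above, 36 P450 genes had a value, of which 5 passed as higher and 5 as lower in the Tak1/Casp8 livers (limma). That is 27.8% of them, beside 18.8% of the 48 members and 6.69% of all genes. The share that passed was thus not particular to families 1 to 3. The median difference of the 36 was -0.02. None of the 36 passed with the separate-variance test, in which 12 had an unadjusted p under 0.05. Lower were the fatty acid hydroxylases Cyp4a10 (-1.69 ± 0.32 SE, n = 4 per group) and Cyp4a31 (-1.93 ± 0.45), Cyp4a14 (-2.92 ± 0.70), and the bile acid 12-hydroxylase Cyp8b1 (-1.47 ± 0.28, limma adjusted p = 0.0123). Higher were Cyp51, an enzyme of cholesterol synthesis (0.82 ± 0.16, limma adjusted p = 0.0154), the oxysterol hydroxylase Cyp39a1 (0.49 ± 0.13), Cyp4b1 (0.73 ± 0.13) and Cyp4f15 (0.40 ± 0.10). Cyp21a1 (-0.64) and its pseudogene Cyp21a2-ps (0.91) passed in opposite directions and can share probes. These genes were named after their values were seen.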
